A study of Hydra vulgaris with 22 samples.

Results

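Epidermal epithelial stem cells (eESC) were set against gastrodermal epithelial stem cells (gESC) from polyps of Hydra vulgaris, strain AEP, that had gone 10 days without food. The labels put 7 of the 22 libraries of the series in this comparison, 4 of eESC_10d (replicates A to D) and 3 of gESC_10d (replicates A to C). Each result was read on transcripts summed over their contigs and repeated without eESC_10d C, an epidermal library with raised levels of gastrodermal transcripts. The series profiled polyadenylated RNA of the epithelial and interstitial stem cells of Hydra at several times after feeding. Animals of both epithelial groups carried an actin::eGFP transgene, with eGFP expressed in eESC for one group and in gESC for the other. The middle of the body column, with head and foot regions removed, was dissociated, and cells with high GFP were collected by fluorescence-activated cell sorting. Libraries were directional Illumina TruSeq libraries. Animals had 3 feedings per week before starvation. Because each layer was sorted from animals in which that layer carried the fluorescence, the layer and the transgenic animals cannot be told apart in this comparison. For reference, the text also uses eESC_3d and gESC_3d (3 libraries each, same transgenes and gate, 3 days without food), ISC_high (4 libraries of interstitial stem cells with high GFP from cnnos1::eGFP animals, 2 to 5 days without food) and 2 unsorted body columns at 10 days. The statistical fit also held ISC_medium, 3 libraries of interstitial cells with medium GFP from cnnos1::eGFP animals, 3 to 5 days without food. One unsorted library came from actin::eGFP animals with eGFP in eESC, and the other from cnnos1::eGFP animals, although the label of that library names gESC as its eGFP-expressing cells. No unsorted tissue of actin::eGFP animals with eGFP in gESC was analysed here.

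The body wall of Hydra is a tube of an outer epidermis and an inner gastrodermis, separated by an extracellular matrix. Each layer is an epithelium of muscle-bearing cells that divide along the body column and replace their own layer only. The epidermis faces the water and covers the animal, and the gastrodermis lines the gut, takes up food and digests it. Cells of the interstitial lineage, which give rise to nerve cells, stinging cells, gland cells and germ cells, lie between the epithelial cells of both layers.

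Counts were deposited for 61501 assembled transcript contigs, which fall into 44306 stems when the isoform ending of the identifier is dropped. Of these, 35462 stems had 1 contig and 8844 had more. No identifier (0 contigs and 0 stems) matched the 28925 genes of the reference table, so stems are given by identifier, with no gene name or function. Total counts were 26364039, 25389419, 27546142 and 30472270 in eESC_10d A to D, and 29843317, 31150814 and 31723680 in gESC_10d A to C. Levels are CPM (counts scaled to a common library size after TMM normalization), and a fold change is the log2 value in eESC minus that in gESC. They compare 1 stem between libraries and not stems with each other, since transcript lengths were not used here. Differences were tested with the quasi-likelihood test of edgeR on the counts summed by stem, and calls were made where the p-value, adjusted by Benjamini and Hochberg over all stems tested, was under 0.05. The labels do not say whether libraries came from separate cultures, so p-values measure a spread between libraries, which may be technical. That spread was estimated over all 20 sorted libraries of the series, not over the 7 compared alone. In sorted bulk samples, fewer cells with a transcript and less of it per cell cannot be told apart.

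Differences between the layers were widespread. Of 18288 stems tested, 9500 (51.9%) were called, 5116 (28.0%) higher and 4384 (24.0%) lower in eESC. At least 2-fold differences made up 4097 (22.4%) of the stems on the eESC side and 3322 (18.2%) on the gESC side. Every library of one layer lay above every library of the other in 9184 of the called stems, and such a gap between the groups was seen in 60.7% of all stems tested. For 4788 (54.5%) of the 8788 stems not called, the approximate 95% interval of the log2 fold change lay within 1 of 0, so a 2-fold difference lay outside it. The median log2 fold change of all stems was 0.04. With library size alone in place of TMM it was 0.20, and 60.6% of the calls then lay on the eESC side, instead of 53.9%.

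Stems were called at every level of abundance. The share of stems called was 45.9% under 1 CPM, 56.8% from 1 to 10 CPM, 54.4% from 10 to 100 CPM and 46.1% above, as means over the 7 libraries. Differences of at least 2-fold were called in 45.5% of stems under 1 CPM, 47.3% at 1 to 10 CPM, 32.6% at 10 to 100 CPM and 28.8% above. The filter on low counts can keep a stem of low mean through the group where it is high. The shares at low levels are therefore in part a product of the filter. With no filter, 12033 of 44296 stems were called. Among the 100 most abundant stems, 10 of the called ones were higher and 12 were lower in eESC. Stems with 1 contig were called in 53.4% of cases and stems with more contigs in 49.9%.

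The most abundant stems with at least 2-fold differences give the scale. Stem c26254_g3 had 10947, 12583, 9806 and 10665 CPM in eESC_10d A to D, against 23.3, 27.6 and 24.9 CPM in gESC_10d A to C. Its log2 fold change was 8.76 (SE 0.46, edgeR adjusted p = 1.6e-11). Stem c26090_g1 had 11106, 11738, 9777 and 10402 CPM in eESC_10d, against 84.0, 85.0 and 76.7 CPM in gESC_10d, a log2 fold change of 7.04 (SE 0.26, edgeR adjusted p = 3.2e-13). In both, the epidermal libraries lay close together and more than 100-fold above every gastrodermal one. On the gastrodermal side, c25578_g2 had 4698, 3772, 3522 and 3664 CPM in eESC_10d, against 11299, 10708 and 11137 CPM in gESC_10d, with a log2 fold change of -1.50 (SE 0.22, edgeR adjusted p = 1.1e-05). This stem was therefore abundant in both layers, and its groups did not overlap. Stem c26101_g1 had 74.6, 58.2, 1305 and 64.2 CPM in eESC_10d, against 12702, 11039 and 11340 CPM in gESC_10d. One epidermal library, eESC_10d C, was far above the other 3, and its value decides the fold: the log2 fold change was -4.96 (SE 0.93, edgeR adjusted p = 0.00015) with it and -7.47 without it (adjusted p = 1.3e-09).

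**Figure D1:**
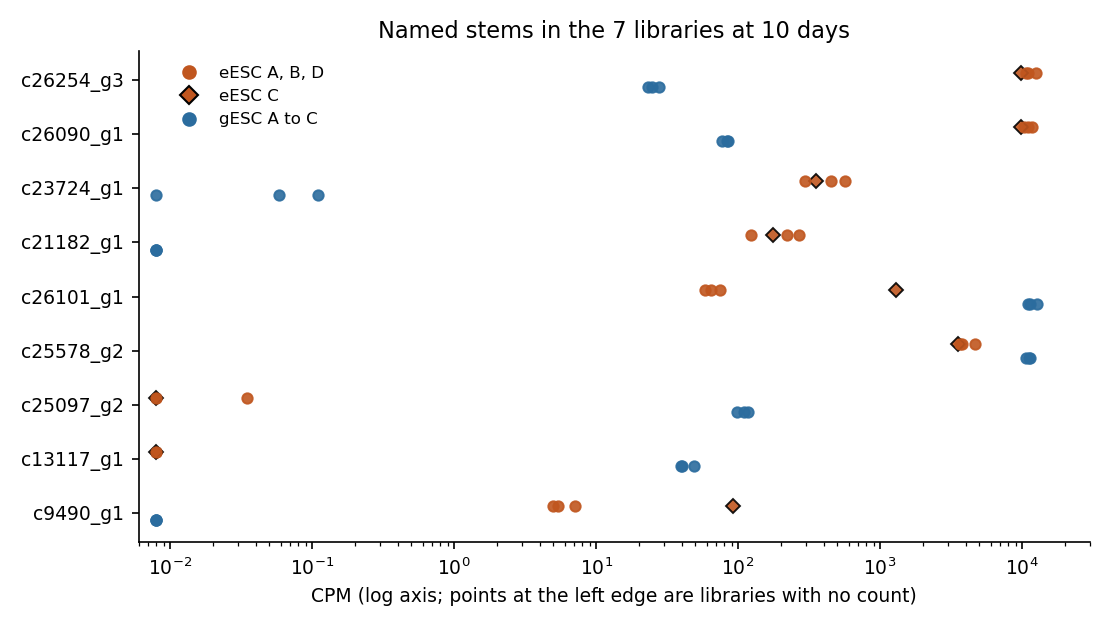
CPM on a log axis of 9 stems in each of the 7 libraries at 10 days, with eESC libraries above and gESC libraries below the line of each stem and eESC C drawn as a diamond; libraries with no count sit at the left edge. Layers are separate in all 9 stems, which was a condition of the choice for those taken by extreme fold change. The library eESC C stands apart from the other eESC libraries in c26101_g1 (1305 CPM) and c9490_g1 (91.8 CPM).

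Some stems were all but restricted to the libraries of one layer. Stem c21182_g1 had 267, 223, 177 and 123 CPM in eESC_10d and no count in any gESC_10d library, which makes it at least 5874-fold higher in eESC against 3 counts over the gESC libraries (edgeR adjusted p = 5.8e-11). Stem c23724_g1 had 565, 448, 354 and 295 CPM in eESC_10d, against 0.109, 0.0587 and 0 CPM in gESC_10d, a ratio of 7462 with a 95% counting interval of 3197 to 22984 (edgeR adjusted p = 7.3e-11). In the other direction, c13117_g1 had no count in any eESC_10d library and 49.0, 39.8 and 40.2 CPM in gESC_10d, at least 1731-fold lower in eESC (edgeR adjusted p = 1.5e-12). The epidermal library that stood apart in c26101_g1 thus had no count of c13117_g1. Stem c25097_g2 had 0, 0.0345, 0 and 0 CPM in eESC_10d, a single count in all, against 117, 110 and 98.6 CPM in gESC_10d. The ratio of gESC to eESC was 13184, with a counting interval of 2366 to 520794 (edgeR adjusted p = 3.7e-11). Among stems with 1 contig, c24621_g1 had 0.340, 0.207, 0.168 and 0.137 CPM in eESC_10d, against 1154, 806 and 779 CPM in gESC_10d (edgeR adjusted p = 1.3e-11). Stems c13117_g1, c25097_g2 and c24621_g1 also had no count in unsorted actin::eGFP tissue, as described below. For them, a difference of layer and one between the transgenic animals cannot be told apart. In total, 107 stems had at least 1 CPM in every eESC_10d library with no count in gESC_10d, and 29 were the reverse, or 86 when only eESC_10d A, B and D had to be without a count. No molecular identifiers are described, so reads need not be separate molecules, and all intervals and floors hold for counting error alone.

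The last 1-contig stem on the epidermal side owed its place to 1 library. Stem c9490_g1 had 7.11, 5.38, 91.8 and 4.99 CPM in eESC_10d and no count in gESC_10d, at least 824-fold higher (edgeR adjusted p = 0.00016). Without eESC_10d C it averaged 5.83 ± 1.13 CPM (SD, n = 3) in eESC_10d, and the bound was at least 176-fold (edgeR adjusted p = 9.1e-06). The unsorted body columns had more of it than any sorted epithelial library, with 621 CPM in the actin::eGFP animals and 343 CPM in the cnnos1::eGFP animals, scaled by total counts.

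Because eESC_10d C stood apart, layer identity was read from stems chosen on the 3-day libraries alone. A stem was taken as gastrodermal when every gESC_3d library had at least 10 CPM and the eESC_3d mean was at most 1% of the gESC_3d mean, and as epidermal in the mirror case. This gave 346 gastrodermal and 350 epidermal stems. At 10 days all 350 epidermal stems were called on the eESC side, against 28.0% of all stems, and all 346 gastrodermal stems on the gESC side, against 24.0%. The epidermal stems had median levels of 109, 102, 91.4 and 98.1% of the eESC_10d mean in eESC_10d A to D, against 0.455, 0.483 and 0.380% in gESC_10d A to C. The labels and the epidermal stems therefore gave the same layer in all 7 libraries.

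The gastrodermal stems did so in 6 libraries and were raised in the remaining one. Their median level, as a share of the gESC_10d mean, was 0.558, 0.429, 7.66 and 0.522% in eESC_10d A to D, against 112, 94.7 and 93.6% in gESC_10d A to C. They took 0.978% of the counts of eESC_10d C (95% Wilson interval 0.974 to 0.981) and 0.0637, 0.0586 and 0.0675% of those of A, B and D, against 10.4, 9.98 and 8.70% in gESC_10d. Intervals of the shares not given here were at most 0.0127 percentage points to either side. The shares in the unsorted body columns were 4.55% for actin::eGFP and 4.67% for cnnos1::eGFP animals. Stem by stem, the level in C over the mean of A, B and D had a median of 15.7 and quartiles of 11.3 and 18.6, and C was the highest of the 4 in 334 of the 346 stems. The epidermal stems went slightly the other way, with a median ratio of 0.888 and C highest in 20 of 350. The 2 most abundant gastrodermal stems show the same order: c25584_g1 had 76.8, 57.8, 1021 and 57.0 CPM in eESC_10d, against 13435, 7613 and 7464 CPM in gESC_10d, and c26101_g1 is given above. The log2 fold change of c25584_g1 was -4.97 (SE 0.89, edgeR adjusted p = 9.6e-05) and -7.22 without C.

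**Figure D2:**
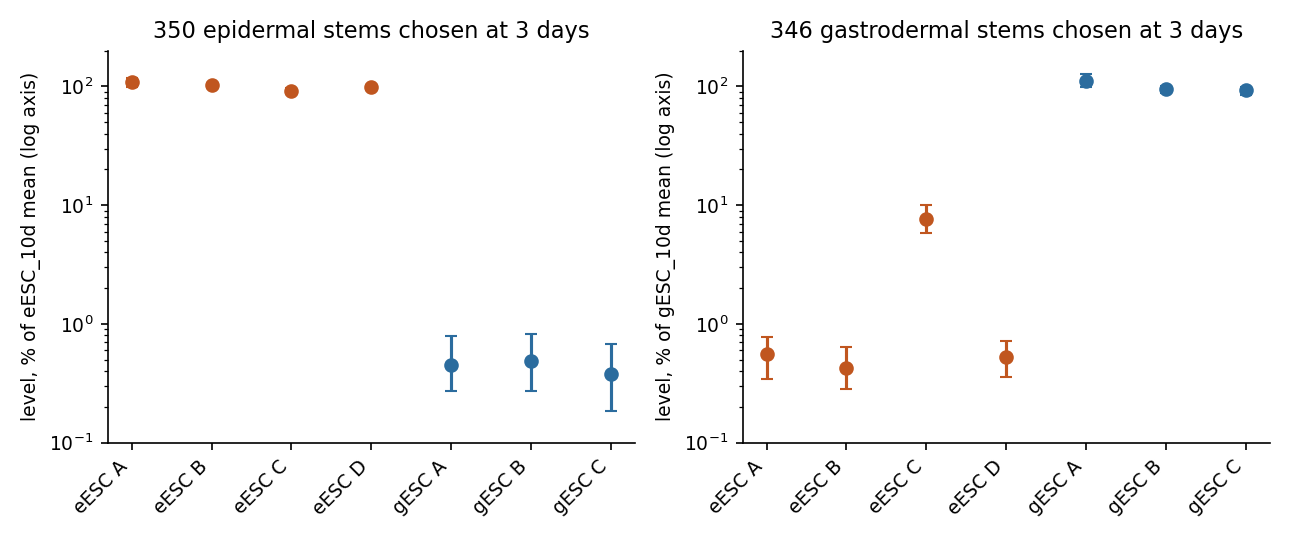
Median level, with lower and upper quartile as bars, of the 350 epidermal stems (left, as % of the eESC_10d mean) and the 346 gastrodermal stems (right, as % of the gESC_10d mean) in each library at 10 days, on log axes. The epidermal stems are under 1% in all 3 gESC libraries, while the gastrodermal stems are at 7.66% in eESC C and at 0.429 to 0.558% in the other eESC libraries.

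Across stems, eESC_10d C also ranked transcripts more like the gastrodermal libraries did. Over the 18288 stems, Spearman's rho with the gESC_10d libraries was 0.786 to 0.804 for C and 0.693 to 0.725 for A, B and D. Within layers it was 0.956 to 0.988 in eESC and 0.975 to 0.993 in gESC, so C still ranked stems closer to its own layer. Stems with at least 5 CPM that were at least 4-fold above the other 3 epidermal libraries numbered 1 for A, 16 for B, 310 for C and 0 for D. Of the 310, 274 were higher still in the gESC_10d mean. Among the other 36, 25 were higher in both unsorted body columns than in C, c9490_g1 among them. These counts were chosen after seeing the data.

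Leaving out eESC_10d C hardly changed which stems were called and changed the size of the gastrodermal differences. Without it 9113 of 18037 stems (50.5%) were called, with 4875 (27.0%) on the eESC side and 4238 (23.5%) on the gESC side. Calls shared with the fit of all 4 epidermal libraries numbered 8935, 0 of them with the opposite sign. On the eESC side, 965 stems were called at least 64-fold higher with C and 951 without it. On the gESC side, 285 were called at least 64-fold lower with C and 940 without it. At 256-fold the counts were 300 and 314 on the eESC side, and 60 and 212 on the gESC side. Many of the largest fitted folds rest on layers without a single count, 376 of the 965 and 128 of the 285 at 64-fold, and their exact size depends on the prior count of the fit. The 350 epidermal stems had a median log2 fold change of 7.72 with C and 7.75 without it. The 346 gastrodermal stems had -5.40 with C and -7.56 without it, against medians of 0.04 and 0.02 over all stems. Only 2 to 5 stems in each set lacked any count in the other layer. Setting so few at their bound could hardly move a median, and these medians did not change to 2 decimals.

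**Figure D3:**
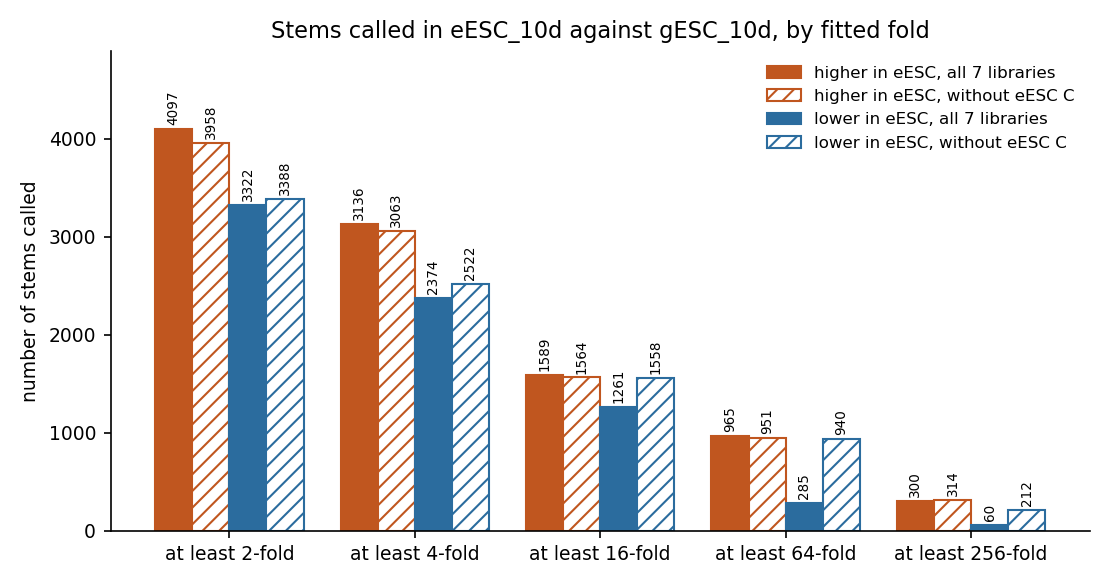
Number of stems called at an adjusted p under 0.05 in eESC_10d against gESC_10d, by minimum fitted fold; filled bars use all 7 libraries and hatched bars leave out eESC_10d C. At 64-fold and above, the stems lower in eESC number 285 with and 940 without that library, and those higher in eESC 965 and 951.

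Some gastrodermal stems with large folds were missing from the unsorted actin::eGFP body column, although that library had counts of the restricted stems of both layers. Of the stems called lower in eESC with a gESC_10d mean of at least 10 CPM, 18 were at least 256-fold lower, and 13 of these had at most 3 counts in the unsorted actin::eGFP library. In the bins below the numbers were 2 of 59 (64- to 256-fold), 3 of 476 (16- to 64-fold) and 0 of 431 and 451 (4- to 16-fold and 2- to 4-fold). That share depends on eESC_10d C: without it, 103 stems were at least 256-fold lower, and 13 of them were missing, so most stems with such folds were then present in the unsorted library. On the epidermal side, 0 of 146 stems at 256-fold and above were missing from the same library, and 5 were missing from the unsorted cnnos1::eGFP one. In the epidermal bins below, 2 of 239 (64- to 256-fold) were missing from the unsorted actin::eGFP library, and 0 of 151, 516 and 445 further down. The 13 gastrodermal stems had 1 count in all in the unsorted actin::eGFP library, at a total depth of 15457132 counts, and 8226 in the unsorted cnnos1::eGFP library, where 11 of the 13 had more than 3. They had 17, 14, 11 and 16 counts in eESC_10d A to D, against 46421, 42652 and 37968 in gESC_10d A to C. They include c13117_g1, c25097_g2 and c24621_g1: unsorted actin::eGFP tissue had 0 CPM of each, and unsorted cnnos1::eGFP tissue had 8.37, 48.2 and 353 CPM. For these stems a difference of layer and a difference between the transgenic animals cannot be told apart. This count was chosen after seeing the data.

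The same split ran through eESC_10d C. Of the 346 gastrodermal stems, 12 had at most 3 counts in the unsorted actin::eGFP library, and their median level in C was 0% of the gESC_10d mean, at most 0.513%. The other 334 had a median of 7.81% in C, against 0.570, 0.444 and 0.538% in A, B and D. Stems seen in gESC but not in the unsorted tissue of the actin::eGFP animals with eGFP in eESC were thus not raised in C either. With the limit for a gastrodermal stem set at 0.1% instead of 1%, 16 stems remained, 9 of them missing from that tissue, and the median in C was 0.056%. The 7 others had a median of 3.92% in C.

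**Figure D4:**
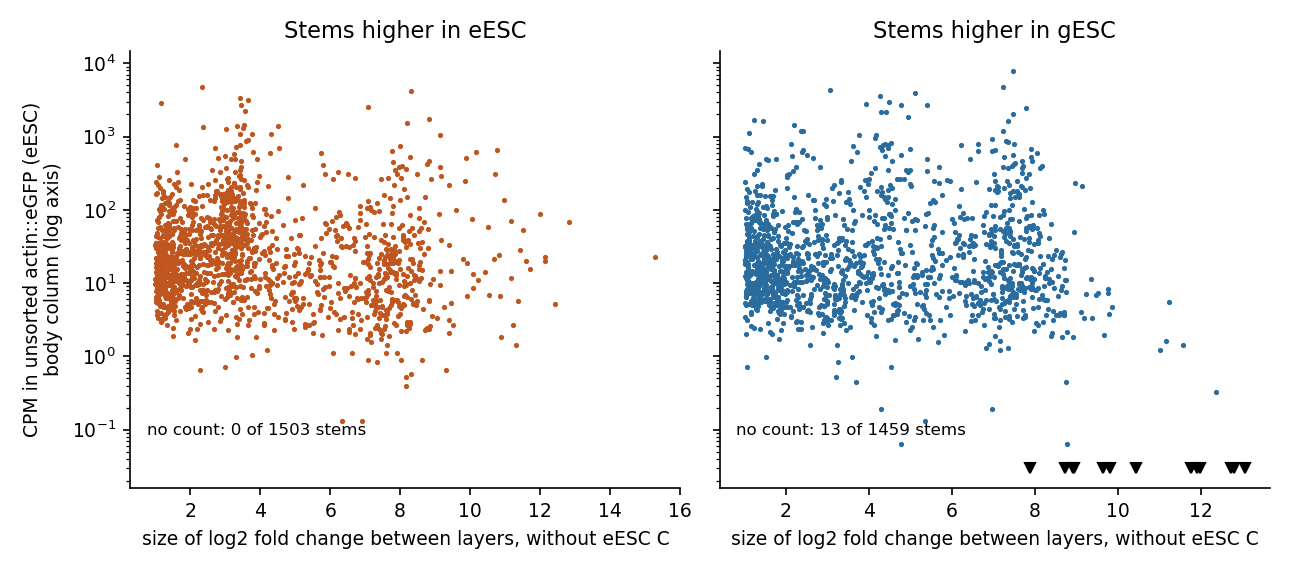
CPM in the unsorted body column of actin::eGFP animals with eGFP in eESC (log axis) against the size of the log2 fold change between layers without eESC C, for called stems at least 2-fold higher in eESC (left, 1503 stems) or gESC (right, 1459 stems) with a mean of at least 10 CPM in the higher layer; triangles mark stems with no count in the unsorted library. No stem on the left and 13 on the right had no count there, among many stems of similar fold that did.

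The layer difference at 10 days was set beside that at 3 days in separate libraries, which were shallower (17159718 to 18473512 counts in eESC_3d and 19422544 to 25455639 in gESC_3d). At 3 days, 9074 (49.6%) of the 18288 stems were called, 4519 (24.7%) higher and 4555 (24.9%) lower in eESC_3d. Of these, 7952 were called in the same direction at 10 days, which is 87.6% of the 3-day calls and 83.7% of the 10-day calls. Stems called at least 2-fold higher in eESC at 3 days (3709, 20.3% of stems) had a median log2 fold change of 3.28 at 10 days, against 3.19 at 3 days. Those called at least 2-fold lower (3366, 18.4%) had -3.03 at 10 days, or -3.58 without eESC_10d C, against -3.67 at 3 days. The gastrodermal differences were thus smaller at 10 days with eESC_10d C in the comparison, and close to the 3-day ones without it.

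Only 2 stems were called in opposite directions at the 2 times. Stem c18112_g3 had 19.4, 18.4, 14.1 and 18.4 CPM in eESC_10d, against 13.1, 13.4 and 12.2 CPM in gESC_10d, a log2 fold change of 0.44 at 10 days (edgeR adjusted p = 0.011) and -0.81 at 3 days (adjusted p = 0.0002). Stem c25992_g2 had 5.48, 4.73, 2.38 and 5.46 CPM in eESC_10d, against 0.984, 1.29 and 1.21 CPM in gESC_10d, with 1.95 at 10 days (edgeR adjusted p = 6.1e-05) and -1.24 at 3 days (adjusted p = 0.017). Both changed sides because the epidermal level was higher at 10 days: eESC_3d had 6.48, 8.35 and 6.83 CPM of c18112_g3 and 0.337, 0.713 and 0.336 CPM of c25992_g2. Both are among the stems with a changed difference described next, and they were named after their values were seen.

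The change of the layer difference itself was called in 15 stems (0.082% of 18288), with 1409 at an unadjusted p under 0.05. In 12 stems (0.0656%) the difference shifted toward eESC at 10 days, and in 3 (0.0164%) toward gESC. All 12 were lower in eESC_3d than in gESC_3d, and in all 12 every eESC_10d library lay above every eESC_3d library, with eESC means 1.94 to 9.77 times those at 3 days. These stems were picked by a test on the same values, and the share of all stems with such a gap was not computed. Their gESC means at 10 days were 0.699 to 1.39 times those at 3 days. Stem c23830_g1 had 6.24, 5.86, 6.17 and 6.94 CPM in eESC_10d, against 18.5, 19.6 and 15.6 CPM in gESC_10d. At 3 days it had 1.75, 2.34 and 2.18 CPM in eESC_3d, against 19.2, 21.6 and 19.1 CPM in gESC_3d, so the gap narrowed from the epidermal side (change of 1.74 on the log2 scale, SE 0.23, edgeR adjusted p = 0.003). Stem c22494_g1 changed by 1.62 (SE 0.30, edgeR adjusted p = 0.047), with 8.58, 8.66, 10.0 and 8.53 CPM in eESC_10d, against 46.7, 37.8 and 39.2 CPM in gESC_10d. Its call was lost in 19 of 21 alternatives, other scalings and the leaving out of most single libraries among them, with adjusted p-values of 0.0187 to 0.525 over the 21.

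The 3 stems that shifted toward gESC were epidermal at 3 days and much lower in eESC at 10 days. Stem c25499_g1 had 33.8, 25.8, 61.7 and 31.6 CPM in eESC_10d, against 73.1, 47.4 and 34.97 CPM in gESC_10d. In eESC_3d it had 998, 769 and 1029 CPM, against 34.8, 31.2 and 44.6 CPM in gESC_3d. With all libraries the layers overlapped at 10 days (log2 fold change -0.44, SE 0.30, edgeR adjusted p = 0.25), and this overlap rests on eESC_10d C: without it every eESC_10d library lay below every gESC_10d library and the stem was called lower in eESC (-0.77, adjusted p = 0.025). At 3 days the stem was higher in eESC (4.66), a change of the layer difference of -5.10 (SE 0.46, adjusted p = 2.9e-05). Stem c23773_g1 had 74.4, 103, 118 and 112 CPM in eESC_10d, against 0.510, 0.881 and 0.456 CPM in gESC_10d. In eESC_3d it had 626, 525 and 930 CPM, so it remained almost purely epidermal at a lower level (change -3.53, SE 0.61, edgeR adjusted p = 0.022). That call was lost in 9 of 21 alternatives, among them library size alone and the leaving out of gESC_10d A or B, eESC_3d A or C, or any gESC_3d library, with adjusted p-values of 0.00777 to 0.226 over the 21. The remaining stem, c19475_g1, named after its values were seen, had 13.2, 8.76, 9.99 and 12.7 CPM in eESC_10d and 93.7, 80.9 and 50.8 CPM in eESC_3d. Without eESC_10d C the count of changed stems was 27 (0.15% of 18037), 21 (0.116%) toward eESC and 6 (0.0333%) toward gESC, and 14 of the 15 were among them. Without both eESC_10d C and gESC_3d C, an alternative chosen after seeing the data, it was 35, with 13 of the 15. The count was 5 without gESC_10d A, gESC_10d B or eESC_3d A, 6 without eESC_3d C, and 7 without gESC_10d C, gESC_3d A or gESC_3d B. It was 8 without eESC_10d D, 9 without gESC_3d C and 11 to 22 without eESC_10d A, eESC_10d B or eESC_3d B, so it rests on which libraries are in the fit. The 10-day and 3-day libraries differed in depth as well as in time, and its part in these changes was not tested.

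**Figure D5:**
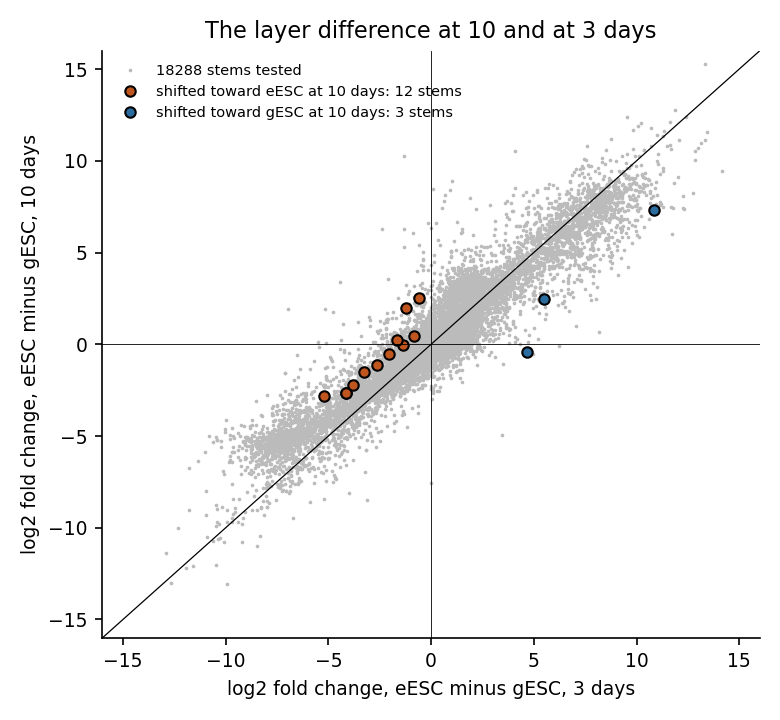
Log2 fold change (eESC minus gESC) of each of the 18288 stems at 10 days against that at 3 days; large points are the 15 stems whose layer difference changed, 12 shifted toward eESC and 3 toward gESC, and the diagonal marks equal differences. The cloud at strongly negative values lies above the diagonal, where the median of stems at least 2-fold lower in eESC at 3 days is -3.03 at 10 days and -3.67 at 3 days.

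Contigs taken one by one gave a different picture from stems in part of the cases. Of 28522 contigs tested, 11366 (39.8%) were called, with 5990 (21.0%) on the eESC side and 5376 (18.8%) on the gESC side. Of the 6141 called contigs that share their stem with others, 4999 (81.4%) belonged to a stem called in the same direction, 262 to a stem called in the opposite direction and 880 to a stem not called. Conversely, 726 of 3764 called stems with several contigs had no called contig. Contig c26218_g1_i04, 1 of 8 in its stem, had no count in eESC_10d and 1948, 1809 and 1359 CPM in gESC_10d, at least 69329-fold lower in eESC (edgeR adjusted p = 4.6e-08). Its stem had 1186, 1076, 1278 and 1093 CPM in eESC_10d, against 2062, 2027 and 1593 CPM in gESC_10d, and was not called (adjusted p = 0.097). Both groups of libraries thus had the stem, with reads on different contigs of it. For this contig and those below, a difference of layer and one between the transgenic animals cannot be told apart. Levels of single contigs in the unsorted libraries are not given here.

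Contig c24078_g1_i01 was the epidermal counterpart. It had 82.4, 41.3, 90.7 and 46.9 CPM in eESC_10d and no count in gESC_10d (at least 1930-fold higher, edgeR adjusted p = 3.1e-07), while its stem had 257 ± 32.6 CPM in eESC_10d (SD, n = 4) and 259 ± 5.80 CPM in gESC_10d (SD, n = 3). Contig c23525_g1_i02 had no count in eESC_10d and 130, 137 and 99.8 CPM in gESC_10d (edgeR adjusted p = 6.9e-05), with 276 ± 13.1 CPM of its stem in eESC_10d and 239 ± 32.1 CPM in gESC_10d. Contig c25548_g1_i05 had 113, 91.7, 52.0 and 92.8 CPM in eESC_10d and no count in gESC_10d (edgeR adjusted p = 0.0001), although its stem was lower in eESC, with 131 ± 8.52 CPM in eESC_10d and 221 ± 70.9 CPM in gESC_10d (adjusted p = 0.0027). Among 2258 stems with several contigs, at least 10 CPM in both layers and the same main contig in all libraries of a layer, 148 (6.55%) had a different main contig in eESC than in gESC, 54 of them without a call for the stem. Contigs of 1 stem can be alleles, isoforms or copies, and how reads were divided between them is not stated, so which contig received a read is uncertain.

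Epithelial libraries were also read for interstitial transcripts. Only 1 stem met the 1% limit against both 3-day epithelial groups, so the 11 stems at a 5% limit were used. Their summed level, as a share of the ISC_high mean, was 7.50, 8.33, 7.25 and 8.86% in eESC_10d A to D, against 2.31, 3.05 and 3.07% in gESC_10d A to C. The groups did not overlap (exact permutation test over libraries, two-sided, p = 0.0286, the smallest that 4 against 3 libraries allow, adjusted over 7 library values 0.04). Those 7 values include shares of stems chosen at 3 days for a layer difference, so the adjustment was lenient. Without eESC_10d C the p was 0.1, the smallest possible for 3 against 3. Their part in the differences between the layers was not tested. The 3-day libraries had 1.67 to 4.01% in eESC_3d and 1.82 to 3.07% in gESC_3d. Low values at 3 days follow from the choice of these stems, whose means were at most 5% of ISC_high in both 3-day groups. The 3-day values therefore cannot show whether the level changed with time since feeding. The unsorted libraries had 14.3% in actin::eGFP and 28.8% in cnnos1::eGFP tissue. Of the 4097 stems at least 2-fold higher in eESC, 51.3% had an ISC_high mean of at most 5% of the eESC mean and 18.4% one of at least 50%. For the 3322 lower in eESC, the shares relative to gESC were 51.7% and 17.8%. Shares over all stems were not computed, and these stems were chosen for a high level in the layer they were divided by. Whether they were lower in interstitial cells than other stems was therefore not tested.

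Library complexity did not separate the layers at this number of libraries. Stems with a count numbered 29549, 33966, 34755 and 34595 in eESC_10d A to D, against 27669, 33865 and 33882 in gESC_10d A to C (exact permutation test, two-sided, p = 0.457). The 10 most abundant stems of a library took 14.7 ± 3.01% of counts in eESC_10d (SD, n = 4) and 19.1 ± 4.82% in gESC_10d (SD, n = 3; exact permutation test, p = 0.2). Most of that spread came from 1 stem, c26324_g1, which was named after its values were seen. It took 6.30, 3.53, 8.33 and 0.356% of counts in eESC_10d, against 9.36, 4.84 and 15.4% in gESC_10d, and was not called (edgeR adjusted p = 0.13). It was among the stems at least 2-fold lower in eESC at 3 days. The other 3365 of those stems took 3.31, 3.45, 5.35 and 3.61% of counts in eESC_10d, against 24.2, 24.2 and 21.1% in gESC_10d, and again C was the highest of the epidermal libraries.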

How the data were processed

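Per the submitters' processing notes, the files were made with cutadapt 1.11, Salmon 0.7.2 and DESeq2, listed without roles or order, and the build or transcriptome is not given in the sources used here. The authors deposited whole-number counts for 61501 contigs in 22 libraries, used for every result; whether they are rounded estimates is not stated. The 14 largest counts all end in 0. The second table the authors deposited holds a normalized signal, which is the counts of 26024 contigs times 1 factor per library, and served only as an alternative scaling. Per the labels, libraries are polyA-enriched and directional.

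Counts were summed by stem. edgeR 4.0.16 (R 4.3.3) was fitted to the 20 sorted libraries with 1 mean per group, TMM scaling and filterByExpr (minimum count 10, minimum total 15), which kept 18288 stems with 99.7 to 99.9% of counts (common biological coefficient of variation 0.294) and 28522 contigs with 99.6 to 99.9% (0.573). SE is the fold change over the root of F. Unsorted libraries were scaled by total counts and stayed out of tests. Scripts were tested on simulated data. The groups, stems and lists were chosen with earlier results of these data known. Marker genes could not be matched by name, so the stem sets stand in their place.

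Named stems were the 2 highest and 2 lowest called fold changes with a mean of at least 10 CPM and groups that do not overlap (also among 1-contig stems), the 2 most abundant at least 2-fold different stems per side, the 2 extreme changed differences per side, the 2 most abundant gastrodermal stems, and the 2 extreme contigs per side whose stem was not called or went the other way. Other stems printed are said to have been named after their values were seen. Alternatives were median-of-ratios, library-size and author scaling, no filter or a mean of at least 5 CPM, DESeq2 1.42.0, fewer libraries, a replicate block and each replicate left out.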

Additional observations from a re-analysis of the deposited data

Results flagged for a closer look

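A library of eESC_10d was far from the other 3, by Dixon's criterion for 4 values, in 8 of 28 sets of values examined. The criterion flags about 1 in 20 sets that are independent and chosen without regard to their values. These sets were neither, so 8 of 28 cannot be set against that rate. For eESC_10d C these were the share of counts of the gastrodermal stems (0.978%), their median level (7.66% of gESC_10d) and the CPM of c26101_g1 (1305), c25584_g1 (1021), c9490_g1 (91.8) and c22494_g1 (10.0). The values are not independent, since c26101_g1 and c25584_g1 belong to the gastrodermal stems. For eESC_10d A it was the number of stems with a count, 29549. For eESC_10d B it was c25097_g2 at 0.0345 CPM, which is a single count beside libraries with no count, where the criterion is always met.

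The layer difference at 10 days differed from that at 3 days in 15 stems by the direct test. The named ones changed by -5.10 (c25499_g1), -3.53 (c23773_g1), 1.62 (c22494_g1) and 1.74 (c23830_g1) on the log2 scale.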

How the results depend on the processing

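Counts of calls moved by over 1.5 times under a mean of at least 5 CPM, where fewer stems were tested (9196): 5072 stems (2631 on the eESC side, 2441 on the gESC side) and 5372 contigs, with 350 and 58 stems past 64-fold on those sides. Under the other alternatives 8664 to 12033 stems were called. The largest count came with no filter, where 44296 stems were tested, so the share called was lower there than in the main fit. Leaving out 1 replicate gave 8664 to 9113 stems (4572 to 4898 higher, 4032 to 4331 lower), 10056 to 10780 contigs, 924 to 1061 stems past 64-fold on the eESC side and 244 to 940 on the gESC side, 940 being the count without eESC_10d C. DESeq2 called 9615 stems and 12277 contigs. With only the 7 libraries compared in the fit, 10252 of 16841 stems were called. The edgeR adjusted p was then 9.9e-06 for c13117_g1, 1.1e-07 for c26254_g3 and 0.012 for c26101_g1, larger than in the main fit. It was smaller for contigs c23525_g1_i02 (4.6e-05) and c25548_g1_i05 (6.3e-05).

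The count of 15 changed layer differences was 6 with library size alone, 9 with no filter, 7 with only the 13 epithelial libraries, 1 with the replicate block, 5 to 27 without 1 replicate and 35 without eESC_10d C and gESC_3d C together. The cause was not tested. Letters were not shown to pair libraries (correlations of deviations 0.345 for A, 0.262 for B and -0.066 for C). Unlike letters gave -0.387 to 0.371, with eESC_10d A at -0.286 with both gESC_10d B and C. The A libraries also had the fewest stems with a count in each layer (29549 and 27669). Whether they share a deviation was not tested. The replicate block gave 9839 stems and 8208 contigs in the layer comparison. The level of the gastrodermal stems in eESC_10d C was 0.056% at the 0.1% limit, 9.15% at 5% and 8.30% with library size alone.

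None of 308 values of named stems and contigs under alternatives reversed, and 29 lost their call, all changed differences: 19 for c22494_g1, 9 for c23773_g1 and 1 for c23830_g1. At these depths 3 counts in a library equal 0.0823 to 0.113 CPM, the limit that a count of 0 allows.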
